A study of Anguilla anguilla with 45 samples.

Results

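The 88 transcripts described here were those measured higher in the caudal fin than in the liver of the European eel, Anguilla anguilla, on a 2-colour microarray of 992 contigs. A contig is an assembled transcript sequence, and the files name each one by a number only. The rule took, for every contig, the mean log2 ratio over 10 fin arrays (F), 5 of unexposed laboratory eels and 5 of wild Certes eels, and the mean over all 10 liver arrays (L). A contig needed at least 5 values in each set, which 817 contigs had, and was taken when F exceeded L by 2 or more on the log2 scale. The 88 contigs are 10.8% of those that could be chosen and 8.87% of all. At the other end, 40 of the 817 contigs were lower in fin than in liver by 2 or more.

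The study asked whether contamination with cadmium (Cd) and polychlorinated biphenyls (PCBs), persistent industrial compounds, can be read from eel transcripts without killing the fish, for which a fin clip serves. Every sample was labelled with Cy3 and hybridised together with the same Cy5-labelled reference RNA. The reference pooled 30 wild eels caught at Certes, 15 in each of 2 years, and its tissue is labelled liver. A ratio in fin is therefore fin against pooled liver, and a ratio in liver is liver against pooled liver. There were 9 groups of 5 arrays. Fins came from unexposed laboratory eels, from laboratory eels fed PCBs at 50 or at 300 ng/g (written with an unexplained PS after the unit), from laboratory eels held in water with 4 µg/L Cd, and from wild eels of Certes, the Gironde and the Garonne. Livers came from unexposed and from Cd-exposed laboratory eels. Each array had its own fish number within its tissue. The labels give neither the age nor the length of exposure of the fish, and the wild groups differ from the laboratory groups in origin as well as in contamination. The rule used the control and Certes fins and both liver groups, so their values are given as a description. The 25 fin arrays of the Cd, 50 ng/g, 300 ng/g, Gironde and Garonne groups were not used to choose the contigs, and the main tests are on them.

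The caudal fin of a fish is covered by skin, with an epidermis that holds mucus-secreting cells over a dermis rich in collagen, and it is stiffened by bony rays. The liver makes most plasma proteins, bile and yolk precursor, stores energy and detoxifies foreign compounds. Transcripts of keratins, collagens and mucus proteins are usual examples of those abundant in fin, and transcripts of plasma proteins of those abundant in liver. None of the contig numbers matched the gene table used here (0 of 992), so no contig could be given a gene or a function. For the same reason, neither tissue could be checked against its marker genes, and no sequence is shown. In whole tissue, fewer cells of a type and less RNA per cell cannot be told apart.

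Values are the authors' log2 ratios, centred so that each array has a median of 0 over its contigs. Their direction is not stated, and the likely one, from the dyes and the common reference, is sample over reference. If it were the opposite, the 88 contigs would be lower in fin. With no dye swap, a ratio against the reference also holds any difference between the dyes. Arrays had a value for 389 to 988 contigs, and 21.1% of all values were missing, against 28.3% for the 88 contigs. The fin arrays of 50 ng/g fish 26, Gironde eel A306 and Cd fish 45 were singled out, by a measure that is not given here. Counts of contigs passing a test against the reference, between the PCB doses or between Cd fin and liver are given with and without them. Most other counts include them. Other arrays differed from their groups in spread or in number of values. At 300 ng/g, fish 33 had a value for 470 contigs with an SD of 3.07 over them. The other fish of that group had 701 to 936 contigs and SDs of 1.56 to 2.11. Gironde eel A315 had an SD of 1.88, and the other Gironde eels 1.20 to 1.66. At 50 ng/g, fish 29 had an SD of 0.68 and a value for all 88 contigs, and the other fish had SDs of 1.47 to 2.03. Counts without fish 33 or A315 are given only within the ranges over fits that leave out each array.

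**Figure D1:**
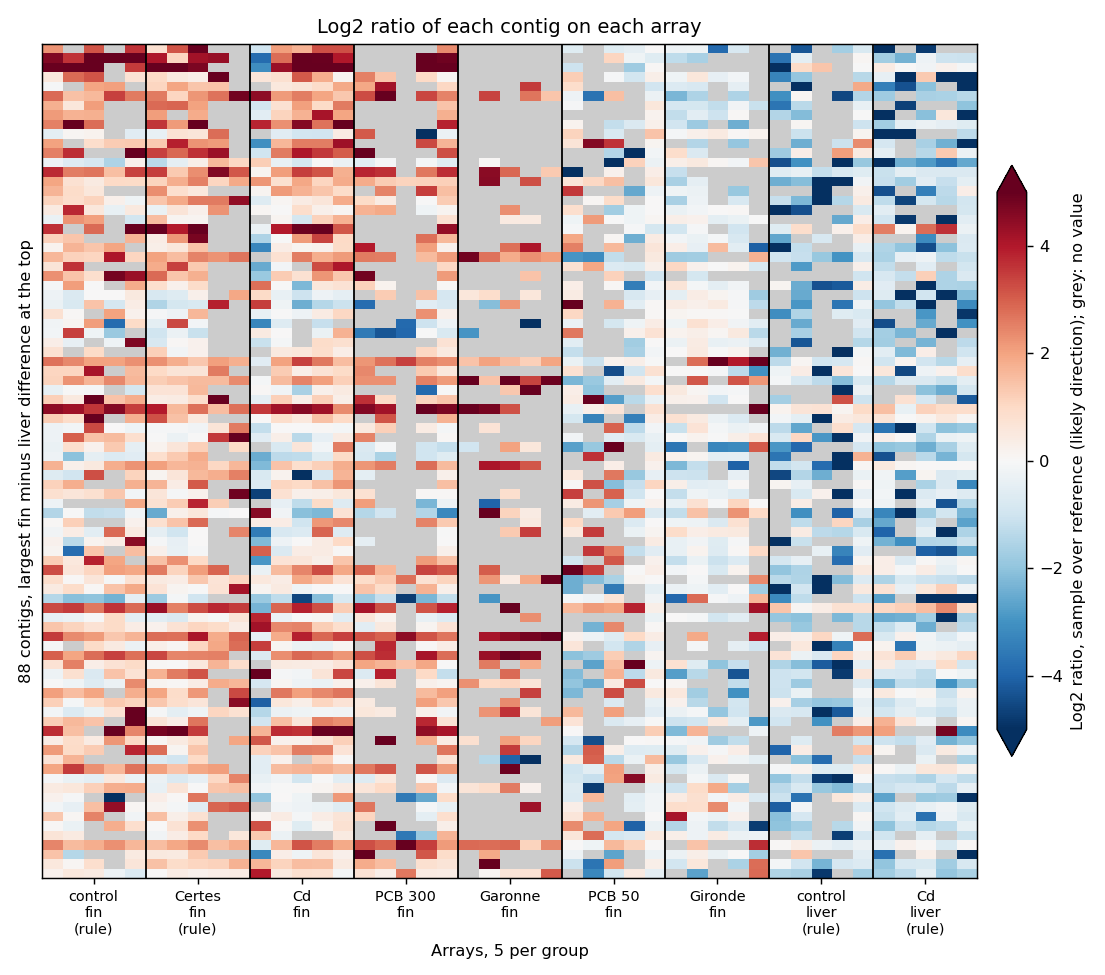
Log2 ratio of the 88 contigs (rows, in order of F minus L) on the 45 arrays (columns, by group), with missing values in grey. Fin columns of the control, Certes, Cd, 300 ng/g and Garonne groups are mostly above 0, liver columns mostly below 0, and the 50 ng/g and Gironde fins show little of this pattern.

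The difference F minus L, which chose the contigs, was 2.01 at the lowest, 2.51 at the median and 6.85 at the highest of the 88, against a median of 0.19 over the 817 contigs. The contigs nearest to the limit on the inside were contig_2298, with F of 0.15, L of -1.85 and a difference of 2.01, and contig_38908, with F of 0.93, L of -1.10 and a difference of 2.03. Just outside were contig_13894, with a difference of 1.99, and contig_10427, with 1.97. The ends of the list were unlike: contig_36368 at 6.85, contig_24357 at 6.52 and contig_12550 at 6.48 led it, on the log2 scale.

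The same difference was reached in unlike ways. F was above 0 in 81 of the 88 contigs and L was below 0 in 80. With boundaries at 1 and -1, chosen after the values were seen, 23 contigs had F above 1 and L within 1 of the reference in either direction. In this class 5 of 23 control liver means were above 0 and 10 were below -1, with a median of -0.72. Another 38 had F within 1 and L below -1, the livers of laboratory eels lying below the pool. In 23 contigs F was above 1 and L below -1. Of the remaining 4, 3 had both means above 1, and contig_5214 had F below -1 with L lower still.

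The 3 contigs with the largest differences show what lies behind the means. For contig_12550 the control fins read 4.96, 7.76, 7.82 and 3.51 and the Certes fins 7.34, 6.29 and 4.69, the other 3 arrays having no value. Livers of Cd-exposed eels read 0.42, -0.03, -0.17, 0.23 and -0.11, and control livers -6.56, 0.94, 1.39 and 0.00. The control and Certes fin values of this contig were above all liver values, and 1 of the 9 liver values was far below the others. For contig_24357 the control fins read 4.64, 3.61, 9.53, 6.87 and 8.52, the Certes fins 4.04, 1.05, 4.20 and 4.36, and the 8 livers between -3.70 and 0.10. For contig_36368 the 6 fins read 0.81 to 5.56, and the 5 livers with a value read -0.76, -1.69, -4.29, -4.78 and -7.29. Here too these fins and livers did not overlap, while the values within a tissue spread over several log2 units. The same arrays made F and L, and these contigs had the largest differences, so the choice itself favoured such a gap. The share of all contigs with a gap of this kind is not given.

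The reference channel of these contigs was dim. Each contig was spotted 3 times on each of 45 slides, and over the slides the median foreground of the reference channel was 1.10 times its own background for the 88 contigs (range 0.98 to 2.50), against 1.19 times over all contigs and 1.66 times over the 40 contigs lower in fin. It was under 1.5 times in 83 of the 88 (94.3%), in 494 of the 817 contigs that could be chosen (60.5%) and in 17 of the 40 (42.5%). The boundary of 1.5 was chosen after the values were seen. For most of the 88 the denominator of the ratio was thus close to background, and the part of this in the results was not tested.

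The level of the set on each array was summarised as the median log2 ratio over the contigs with a value. In the groups the rule used it was 0.75 to 1.36 in control fins (mean 1.05 ± 0.24, SD, n = 5), 0.64 to 2.17 in Certes fins (1.35 ± 0.66), -2.38 to -0.28 in control livers (-1.47 ± 0.83) and -1.08 to -0.77 in livers of Cd-exposed eels (-0.93 ± 0.14). In the unused fins of Cd-exposed eels it was -0.40, 0.42, 0.54, 0.96 and 1.01 (0.51 ± 0.57), with fish 45 as the array below 0. In fins at 300 ng/g PCBs it was 0.75 to 1.86 (1.34 ± 0.41), and in Garonne fins 1.43 to 2.34 (2.02 ± 0.38). The fins at 50 ng/g PCBs, at -0.53 to 0.31 (-0.07 ± 0.32), and the Gironde fins, at -0.27 to -0.10 (-0.19 ± 0.09), lay near the reference. Every array of the 300 ng/g and Garonne groups was above every array of the 50 ng/g and Gironde groups, and 4 of 5 Cd arrays were too. No test was made of this score, because the contigs were chosen with results of these data known.

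**Figure D2:**
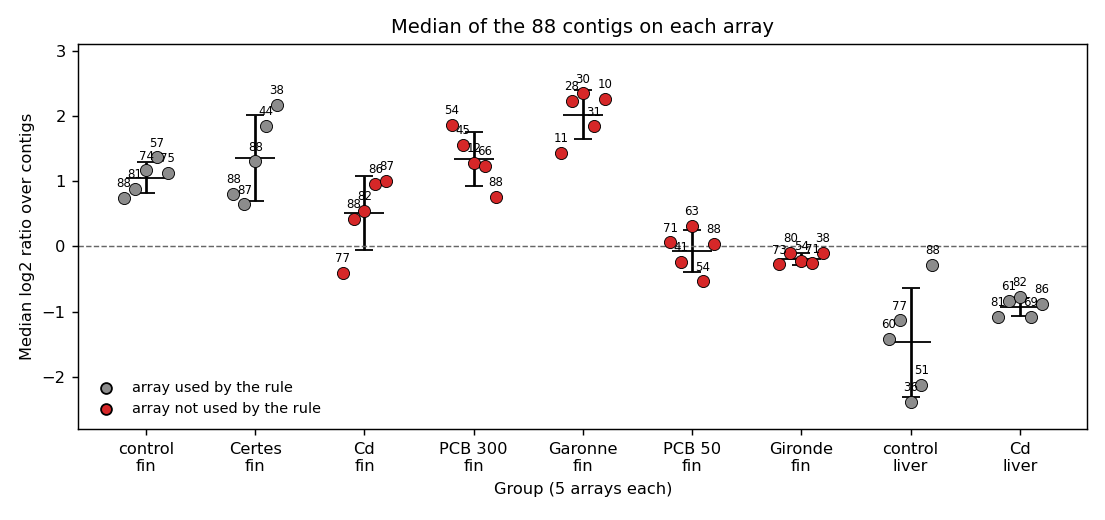
Median log2 ratio over the 88 contigs on each array (points), by group, with the number of contigs behind it above each point, and the group mean ± SD (n = 5) as lines; grey arrays were used by the rule and red ones were not. The 300 ng/g fins sit between 0.75 and 1.86 and the Garonne fins between 1.43 and 2.34, above all fins at 50 ng/g (-0.53 to 0.31) and from the Gironde (-0.27 to -0.10).

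The number of contigs behind these medians differed greatly. Garonne arrays had a value for 10 to 31 of the 88 contigs, 300 ng/g arrays for 12 to 88, Gironde arrays for 38 to 80, 50 ng/g arrays for 41 to 88 and Cd arrays for 77 to 88. In the control fins, the 300 ng/g fins and the control livers, the array with all 88 values was also the one with the median nearest to 0, at 0.75, 0.75 and -0.28. Over the contigs that 2 arrays shared the gap persisted in some groups. Certes eel A210 read a median of 2.17 over 38 contigs and A205 1.04 over the same 38, and the liver of control fish 8 read -2.38 over 36 contigs against -0.13 in the liver of fish 10. At 300 ng/g the array with fewest values was not the farthest from 0: fish 33 read 1.28 over 12 contigs and fish 31 1.86 over 54. In Cd fins, fish 45 had the fewest values and read -0.40 over the 77 contigs shared with fish 47, which read 0.39. Missing values thus moved with the size of the ratios in the control and Certes fins and the control livers, and less clearly elsewhere. Their part in the group differences was not tested.

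Counted over the contigs, the unused fin groups kept the same order. Single contigs departed from it, such as contig_23213, with a mean of 5.11 in Gironde and 1.62 in Garonne fins. The group mean was above 0 in 66 of 88 contigs in Cd fins (75.0%, against 54.1% of all contigs with a value), in 70 of 88 at 300 ng/g (79.5% against 50.4%) and in 45 of 50 in Garonne fins (90.0% against 52.6%). It was above 0 in 48 of 88 at 50 ng/g (54.5% against 56.1%) and in 28 of 85 in Gironde fins (32.9% against 48%). The medians of the contigs' means were 0.62, 1.30, 2.34, 0.10 and -0.23 in that order. For 38 of the 88 contigs no Garonne array gave a value, so the Garonne figures describe 50 contigs. Of these 50, 27 had at least 2 values, and for the others the mean is the value of a single array. At 300 ng/g 75 of the 88 had at least 2 values. In Cd fins and at both PCB doses each of the 88 had at least 1 value.

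Set against the liver mean L, which the rule used, the unused means were higher in 88 of 88 contigs for Cd fins, 88 of 88 for 300 ng/g, 47 of 50 for the Garonne, 75 of 88 for 50 ng/g and 72 of 85 for the Gironde. This is a description, since contigs with low L were chosen.

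The ranking of the contigs within the set carried over to the same 3 groups. Across contigs with at least 2 values, the mean in Cd fins correlated with F at Pearson's r = 0.808 (Spearman's rho = 0.737, 88 contigs), and the mean at 300 ng/g at r = 0.878 (rho = 0.839, 75 contigs). In Garonne fins r was 0.539 (rho = 0.627, 27 contigs). In fins at 50 ng/g r was -0.147 (rho = -0.135, 85 contigs), and in Gironde fins -0.106 (rho = -0.273, 81 contigs). Contigs are not independent replicates, and all means share the reference pool and the centring of the arrays. Over all contigs that could be chosen, r was 0.769, 0.835, 0.827, 0.071 and -0.150 in the same order of groups, so the pattern was not particular to the 88.

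**Figure D3:**
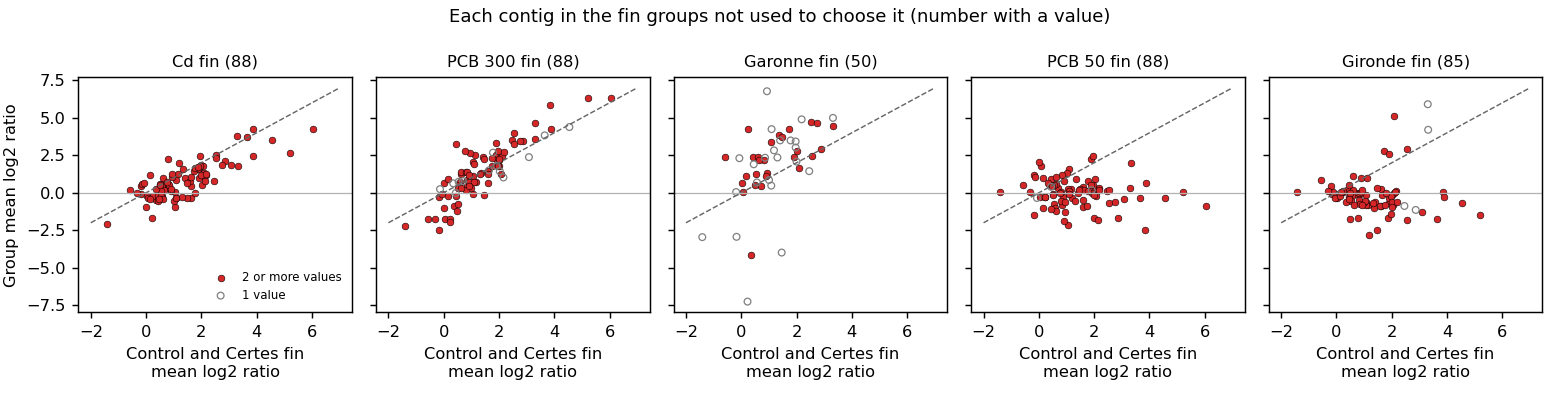
Mean log2 ratio of each of the 88 contigs in the 5 unused fin groups (vertical axis) against F, the mean over the 10 fin arrays of the rule (horizontal axis), 1 point per contig (filled with at least 2 values, open with 1), with the dashed line where both are equal. Filled points follow F in the Cd (r = 0.808) and 300 ng/g (r = 0.878) panels and less closely in the Garonne panel (r = 0.539). At 50 ng/g (r = -0.147) and in the Gironde (r = -0.106) they do not rise with F. They lie on both sides of 0 there, from -2.46 to 2.45 at 50 ng/g and from -2.82 to 5.11 in the Gironde.

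The means in the unused groups were also set out by the manner in which a contig met the rule, as a description. The 23 contigs with F above 1 and L within 1 had median group means of 1.66 in Cd fins, 2.67 at 300 ng/g and 3.42 in Garonne fins (15 contigs), against -0.10 at 50 ng/g and -0.12 in Gironde fins (21 contigs). All 23 were above 0 at 300 ng/g, 20 of 23 in Cd fins and 15 of 15 in Garonne fins. High F defines this class. Over all contigs that could be chosen, F correlated with the means in Cd, 300 ng/g and Garonne fins (r = 0.769, 0.835 and 0.827). The group means of contigs outside the set with F above 1 and L within 1 are not given, so the class cannot be set against them. Within the Gironde group, eel A315 had a median of 3.70 over the 7 of the 23 contigs it measured. The other 4 eels lay between -0.18 and 0.00, over 10 to 19 of the 23. These eels did not measure the same contigs, and the part of this in the gap was not tested. Over the 35 contigs of the whole set that A315 and A305 shared, the median was -0.24 in A315 and 0.26 in A305. Within the Cd group, fish 45 read -0.57 over 21 of the 23 contigs and the other 4 fish 1.58 to 2.50.

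The 38 contigs with livers below the pool and fin near it had medians near it in most unused fin groups too. Single contigs lay away from it on both sides. At 300 ng/g 8 means were above 1 and 7 below -1, and at 50 ng/g 6 and 6. Their median was 0.19 in Cd fins, 0.39 at 300 ng/g, 0.01 at 50 ng/g and -0.05 in Gironde fins (37 contigs). In Garonne fins it was 1.25, over the 23 contigs with a value. On the livers that defined them the array medians were -4.26 to -0.68 in controls and -1.76 to -1.31 after Cd. The 23 contigs that met both conditions had medians of 1.09 in Cd fins, 1.80 at 300 ng/g and 2.79 in Garonne fins (10 contigs), 0.17 at 50 ng/g and -0.80 in Gironde fins, where 2 of 23 were above 0.

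Each unused fin group was then tested against the reference with limma, in 1 fit of the 25 arrays with all contigs that had at least 2 values in the group, two-sided, and with Benjamini-Hochberg adjustment over all contigs tested. The test against 0 leaves out the spread of the reference pool itself, and it needs an adjusted p under 0.05. Each SE comes from a spread estimated over all groups in the fit, not only from the values listed beside it. The SE can thus be smaller or larger than those values alone would give. For contig_23213 in Gironde fins it was 0.58, with an SD of 2.11 over 4 values.

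In Cd fins, 12 of the 88 contigs were higher than the reference and 0 lower, against 2.94% of all 988 contigs tested in each direction. The largest were contig_12550, with values of -3.11, 4.32, 5.57, 5.96 and 8.54 (mean 4.26 ± 1.17, SE, limma adjusted p = 0.0492), and contig_38996, with 1.68, 3.73, 3.67, 5.82 and 6.27 (4.24 ± 0.66, limma adjusted p = 0.00114). The first number in each is fish 45, whose value was the lowest for both. Without fish 45, 23 of the 88 contigs were called higher, and without fish 47, 48, 49 or 50 the counts were 6, 4, 6 and 7. The shares of all contigs called in these fits, and in the other fits of this paragraph, are not given, so the counts cannot be set against them. The call of contig_12550 was lost without any 1 of fish 47, 48, 49 and 50. Array weights gave 32 calls in all and a fit with all 35 fin arrays 19. With the Cd arrays alone in the fit, 1 of the 88 was called, which was neither of these, and the call of contig_12550 was also lost with arrays recentred (adjusted p = 0.107 in limma).

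In fins at 50 ng/g PCBs, limma called 0 of 85 contigs in either direction, against 0% of all 984 contigs tested called higher and 0.102% called lower. At an unadjusted p under 0.05 there were 10 of 85 (11.8%), against 7.11% of all contigs. Without fish 26, and with its sign turned, the count was also 0. It was 1 without fish 29, under quantile normalization and with arrays scaled to one spread, and 2 with array weights. Shares of all contigs called in these fits are not given. Among all 88, 11 had a group mean above 1 at this dose, the highest at 2.45. Of the contigs named in other groups, contig_12550 read -1.03, -1.77 and 0.07 on the 3 arrays with a value, and contig_24357 read 1.08, -0.21 and -0.62.

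In fins at 300 ng/g PCBs, 24 of 75 contigs were higher than the reference and 2 lower, against 7.28% and 14.1% of all 906 contigs tested. For contig_12550 only fish 34 and 35 gave a value, 7.63 and 5.02 (mean 6.32 ± 1.85, SE, limma adjusted p = 0.0279), and for contig_24357 the same fish read 7.73 and 4.85 (6.29 ± 1.58, limma adjusted p = 0.0126). The contigs called lower were contig_3129, at -3.55, -4.30, -3.92, 0.00 and -0.78 (-2.51 ± 0.58, limma adjusted p = 0.00515), and contig_5214, at -1.81, -1.16, -4.73, -2.28 and -1.23 (-2.24 ± 0.71, limma adjusted p = 0.0282). The latter lay below the pool in fin and liver alike and met the rule because it was lower still in liver. Its call was lost without fish 31, 33 or 34 and under each of the 3 other scalings, and that of contig_3129 under quantile normalization. Both of these contigs had a value from all 5 fish, while the 2 highest rested on 2. In place of 26 calls in all, array weights gave 47, scaling to one spread 17, the 300 ng/g arrays alone in the fit 15, and minimums of 4 and 5 values 16 and 6. Higher minimums left fewer contigs to test. Shares of all contigs called in these fits are not given, so the counts cannot be set against them.

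In Gironde fins, 3 of 81 contigs were higher than the reference and 1 lower, against 4.44% and 1.37% of all 947 contigs tested, so the share of the set called higher was near that of all contigs. The highest was contig_23213, at 2.79, 6.27, 3.97 and 7.42 (mean 5.11 ± 0.58, SE, limma adjusted p = 1.79e-06), followed by contig_19308, at 1.88 and 3.92 (2.90 ± 0.79, limma adjusted p = 0.0253), and contig_33460, at 3.09, 3.15 and 2.15 (2.80, limma adjusted p = 0.0139). The one called lower, contig_20582, read -2.26, -1.19 and -4.06 (-2.51 ± 0.68, limma adjusted p = 0.0314), and its call was lost without eel A302 or A310. Without A306 the counts were 3 higher and 1 lower, and with its sign turned 1 and 0. With that sign turned contig_23213, which read 6.27 on that array, had a mean of 1.98 and an adjusted p of 0.676 in limma. Without A305 or A310 the set had 2 calls in place of 4, with a minimum of 4 values 1, and with a minimum of 5 values or with the Gironde arrays alone in the fit 0. The split between higher and lower calls moved with the scaling, from 3 and 1 to 4 and 0 with arrays recentred, 4 and 3 with quantile normalization and 4 and 4 with arrays scaled to one spread. Higher minimums left fewer contigs to test, and shares of all contigs called in the other fits are not given.

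In Garonne fins, 15 of 27 contigs were higher and 1 lower, against 16.3% and 19.9% of all 563 contigs tested. The contigs tested are those that gave 2 values or more in a group with many missing values, and they do not stand for the 88. Minimums of 4 and 5 values left 6 and 4 calls, among fewer contigs tested. Those with a value on all 5 arrays were contig_33460, contig_28807, contig_10751 and contig_23213, each called higher with the minimum of 2. Shares of all contigs called with the other minimums are not given. The highest were contig_19308, at 4.13, 4.50, 4.79 and 5.47 (mean 4.72 ± 0.56, SE, limma adjusted p = 1.52e-06), and contig_22613, at 4.33, 5.03 and 4.66 (4.67 ± 0.69, limma adjusted p = 3.05e-05). The contig called lower, contig_4397, read -1.38, -3.99 and -7.03 (-4.13 ± 0.84, limma adjusted p = 0.000572), and its call was lost under quantile normalization. When each group was fitted alone, contig_12550 and contig_38996 lost their calls in Cd fins, all 4 contigs named at 300 ng/g lost theirs there, and contig_4397 lost its call in the Garonne. The calls of contig_19308 and contig_22613 in the Garonne remained.

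Over these 5 groups, 57 of the 88 contigs were called higher than the reference in none, 18 in 1, 5 in 2, 6 in 3 and 2 in 4, and none in all 5. Over all 992 contigs the numbers were 816, 136, 29, 9, 2 and 0. The calls share the reference, and contigs with few values were tested in fewer groups. The 2 called in 4 groups were contig_23213 and contig_19308, in Cd, 300 ng/g, Gironde and Garonne fins. The first was also the contig with most values, on 44 arrays. It read 1.35 to 2.71 on the 10 fins of the rule, and 2.21, 2.72, 3.43, 2.52 and 2.32 at 300 ng/g. In Garonne fins it read 1.43, 2.01, 1.55, 1.17 and 1.95, and in Cd fins -0.57 in fish 45 and 1.53 to 3.42 in the other 4. At 50 ng/g it read -0.32, -1.09, 0.18, 0.28 and 0.00, and on the 10 livers -1.39 to 0.14. The 5 fins at 50 ng/g were thus within the range of the livers except for 2 values, 0.18 and 0.28, while every Garonne and 300 ng/g fin was above all livers. The livers helped to choose the contig, so their place below these fins is a description.

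**Figure D4:**
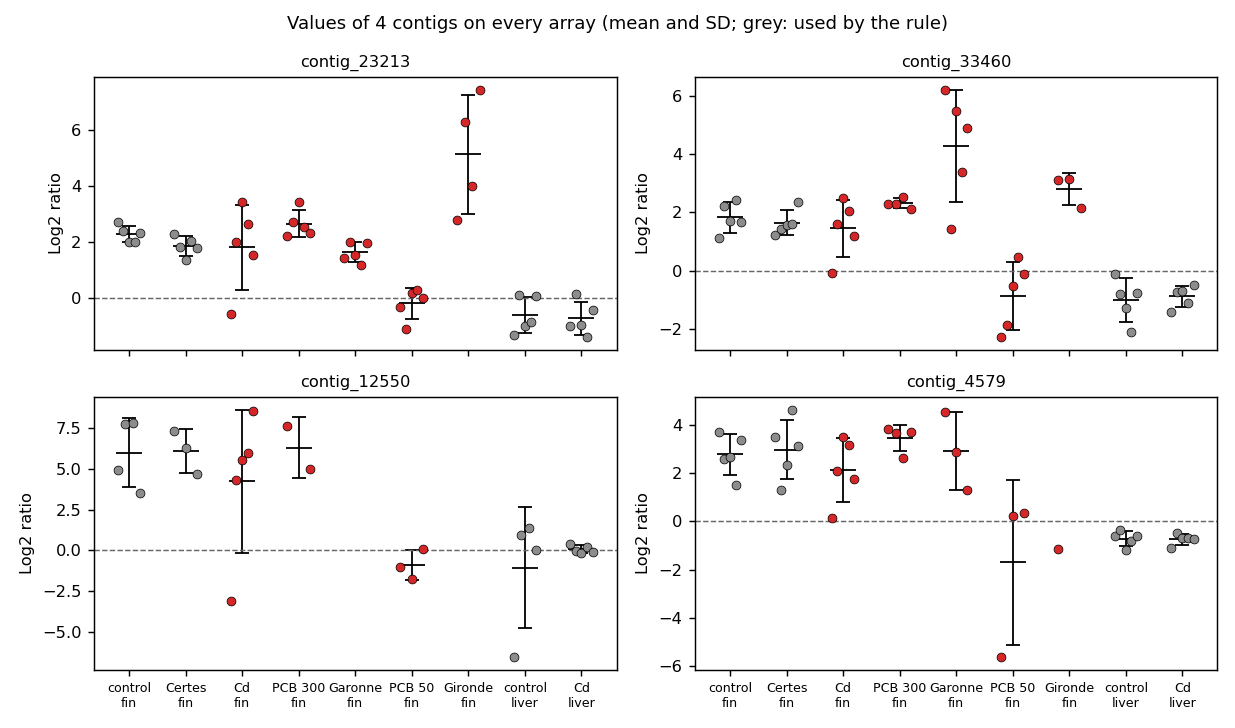
Log2 ratio of 4 contigs on each array (points) by group, with the group mean ± SD as lines (up to 5 arrays per group; grey arrays were used by the rule). For contig_23213 the fins at 300 ng/g (2.21 to 3.43) and from the Garonne (1.17 to 2.01) lie above all 10 livers (-1.39 to 0.14), and the fins at 50 ng/g (-1.09 to 0.28) do not. The livers were used by the rule, so this is a description.

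Next in number of values, contig_33460 read 1.10 to 2.41 on the 10 fins of the rule and -2.12 to -0.12 on the 10 livers. It read 2.27, 2.28, 2.53 and 2.12 at 300 ng/g and 6.21, 1.41, 5.47, 3.37 and 4.90 in Garonne fins. At 50 ng/g it read -2.29, -1.86, -0.52, 0.45 and -0.12, which overlaps the livers and no fin of the rule.

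The 3 contigs called higher in the Gironde were among those with the brightest reference channel relative to background, and contig_20582, called lower, was not. The 5 contigs of the 88 with a reference foreground of at least 1.5 times background were contig_33460, contig_2298, contig_19308, contig_28807 and contig_23213, named after their values were seen. In Gironde fins 4 of these 5 had a mean above 2, against 2 of the other 80 contigs with a value. The means of contig_19308 and contig_28807 rested on 2 values each. The same split is not given over all contigs, and the part of the reference channel in these calls was not tested. At 50 ng/g none of the 5 had a mean above 1, and 11 of the other 83 did. At 300 ng/g 4 of the 5 and 28 of the other 83 had a mean above 2.

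The difference between the PCB doses was tested in the same fit. Of 73 contigs with at least 2 values at each dose, 16 were higher at 300 than at 50 ng/g and 1 was lower, against 3% and 6.44% of all 900 contigs tested. The median difference was 1.32 over the 73 and -0.10 over all contigs, and it was positive in 55 of the 73. In place of 17 calls in all, array weights gave 33, scaling to one spread 11, only the arrays of both doses in the fit 10, and minimums of 4 and 5 values 10 and 4. Higher minimums left fewer contigs to test. Shares of all contigs called in these fits are not given, so the counts show only how the number within the set moved. All values at 300 ng/g were above all values at 50 ng/g in 28 of the 73, against 9.56% of all contigs, and below in 5, against 9.33%. The largest difference was in contig_10607, at 8.41 and 3.24 for 300 ng/g and -1.48, -5.75 and -0.14 for 50 ng/g (8.28 ± 1.82, SE, limma adjusted p = 0.0126). For contig_4579 the fish at 300 ng/g read 3.81, 3.65, 2.63 and 3.69 and those at 50 ng/g -5.63, 0.21 and 0.35 (5.14 ± 1.24, limma adjusted p = 0.0144), and the call was lost without fish 25, the lowest of these, and with arrays scaled to one spread. In contig_10607 and contig_4579 every fish with a value at the higher dose was above every fish with a value at the lower one.

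The contig called lower at the higher dose was contig_3129, with 2.63, 0.26 and 0.74 at 50 ng/g (difference -3.72 ± 0.95, SE, limma adjusted p = 0.0169). Its call was lost without fish 25 or fish 32 and with arrays recentred. With only the arrays of both doses in the fit, the calls of contig_10607, contig_4579 and contig_3129 were lost, at limma adjusted p = 0.07, 0.0631 and 0.086. Without fish 26, 14 contigs were higher and 1 lower, and with the sign of fish 26 turned 9 and 1, again with no share of all contigs given. For comparison side by side, the control fins, used by the rule, read 2.53, 3.69 and 6.53 for contig_10607 and 1.51 to 3.71 for contig_4579. The fins at 300 ng/g overlapped the controls in both contigs, and the fins at 50 ng/g lay below all controls. No test was made against the controls, since they chose the contigs.

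Between the wild sites the rule did not use, 24 contigs had at least 2 values in each. Of these, 7 were lower in the Gironde than in the Garonne and 2 higher, against 13.5% and 24.7% of all 526 contigs tested. The median difference, Gironde minus Garonne, was -1.82 over the 24 and -0.15 over all contigs, and 3 of the 24 differences were positive. With arrays recentred on the contigs measured on every fin array the medians were -2.56 and -1.20, and the calls 10 lower and 1 higher. Values did not overlap in 15 contigs, with the Gironde below in 14, against 15.6% of all contigs, and above in 1, against 22.2%.

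The largest differences downward were contig_20582, at 4.08, 3.86 and 3.12 in the Garonne against the Gironde values given above (-6.19 ± 0.96, SE, limma adjusted p = 0.000154), and contig_15916, at -1.63 and -0.45 in the Gironde and 4.56 and 3.22 in the Garonne (-4.93 ± 0.84, limma adjusted p = 0.00025). Higher in the Gironde were contig_23213 (3.49 ± 0.78, limma adjusted p = 0.00139) and contig_4397, at -1.91, -0.80, 0.22, -0.22 and -0.48 (3.49 ± 1.06, limma adjusted p = 0.0141). The call of contig_4397 was lost without Garonne eel A362 and under each of the 3 other scalings, and that of contig_23213 with the sign of A306 turned. Without A362 the set had 5 calls in place of 9, with a minimum of 1 value 17 and with a minimum of 4 values 1. The number of contigs tested changed with the minimum, and shares of all contigs called in these other fits and with arrays recentred are not given. Certes fins, used by the rule, read 1.03 to 2.05 for contig_20582 and 1.06 to 2.52 for contig_15916, between the sites in both contigs.

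A test of any difference among the 5 unused fin groups could be made for 21 contigs with at least 2 values in each. It called 12, against 30.2% of all 514 contigs tested. With a minimum of 1 value it called 26 and with a minimum of 4 values 1. The number of contigs tested changed with the minimum, and shares of all contigs called at these minimums are not given.

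The remaining contrasts involve groups the rule used. In the livers, which together made L, Cd-exposed and control eels were compared over 87 contigs. Limma called 0 of them, and 0 of all 897 contigs (0%), with 6 of the 87 and 73 of the 897 at an unadjusted p under 0.05. Between the control and Certes fins, which together made F, it called 0 of 88 contigs and 0 of all 876 (0%), with 7 and 149 at an unadjusted p under 0.05. These contrasts were not what the rule selected on, and a call missed does not show that the groups were alike.

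Fin and liver of Cd-exposed eels were set side by side over the 88 contigs. These livers were part of L, so the direction was set by the choice of the contigs, and nothing is read from the count: limma called 18 higher in fin and 0 lower, against 2.92% and 4.21% of all 926 contigs tested. With the fish number, which both tissues share, as a block it called 0. The count was 48 without the fin of fish 45, 8 without the fin of fish 49 and 9 without the liver of fish 48. As a description, contig_36368 read -1.01, 2.11, 1.73, 3.22 and 3.22 in fin and -7.29 and -4.78 in liver, and contig_14918 read 0.54, 0.64, 0.92 and 1.88 in fin and -3.41, -4.37, -2.06 and -5.87 in liver.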

How the data were processed

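The data are 45 2-colour arrays, 35 of caudal fin and 10 of liver, grouped by the titles in the labels, 5 per group. The deposited value table holds log2 ratios of 992 contigs, which the authors centred on the median of each array, as the values show (each median is 0); the sources used here give neither the filtering nor the direction of the ratio. Reference-channel intensities, foreground and background, came from the authors' deposited scanner table, and its 90 sample columns were not used, since they are numbered by slide and carry no sample name. Missing values stayed missing.

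Moderated linear models (limma 3.58.1 in R 4.3.3) gave group means and differences: the 25 unused fin arrays in 1 fit, contigs with at least 2 values in each group compared, Benjamini-Hochberg adjustment over all contigs tested, threshold 0.05. The contrasts of livers, of control with Certes fins and of Cd fin with liver were fitted on their own groups. The fit was tested on simulated data, but the outcome is not given here, so nothing is read from it. Precision is limited by the number of arrays. The labels do not say how fish were kept, so p-values measure the spread between these samples. The contigs, lists and tests were chosen with earlier results of these data known. Contigs named are the 2 largest differences each way among calls, the 2 with most values and the 2 on each side of the limit; others are named as chosen after their values were seen. Of 990 pairs of arrays 9 correlated below -0.3, the lowest at -0.530 (50 ng/g fish 26 with 300 ng/g fish 33), and the deposited direction was kept, with fits that turn the sign of fish 26 or A306. The highest correlation was 0.887, so each array counted as a sample of its own. Control and Cd fins and livers share fish numbers. Deviations from the group means of same-numbered arrays correlated at -0.19 to 0.17, not all above 0.1, so the numbers were not taken as pairs. This check cannot tell whether the same fish gave both tissues, since deviations in 2 tissues of 1 fish need not correlate. Alternatives were other scalings, minimum numbers of values, array weights, other arrays in the fit and leaving out each array.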

Additional observations from a re-analysis of the deposited data

Results flagged for a closer look

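For the 18 contigs named by rule and for the array medians and numbers of values of the set, each group with 4 or 5 values was checked for an array far from the others by Dixon's criterion. In 16 groups (13.6%) there was one, each time for a single contig. For independent, normally distributed values chance gives such an array in about 1 in 20 groups. The contigs share the same arrays, and most were named for large differences, so this rate is no measure for the 13.6%. Cd fish 45 supplied 5 of the 16 in its fin. It read 3.98 for contig_2298 where the other 4 fish read -0.08 to 0.78, -3.84 for contig_24357 (others 2.81 to 5.39), -2.20 for contig_20582 (0.85 to 1.82), -0.70 for contig_22613 (2.21 to 2.85) and -0.99 for contig_10607 (2.61 to 4.06). Fins at 300 ng/g supplied 4. Fish 33 read 2.64 for contig_2298 (others 0.28 to 0.73) and 4.49 for contig_19308 (2.68 to 3.17), fish 34 read 2.63 for contig_4579 (3.65 to 3.81), and fish 31 read 1.85 for contig_15916 (1.13 to 1.27).

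Single arrays made up the rest. Certes eel A203 read 1.05 for contig_24357 (others 4.04 to 4.36), and A201 read 3.32 for contig_22613 (2.43 to 2.53). Gironde eel A315 read -1.34 for contig_3129 (0.09 to 0.51), and A306 read -3.89 for contig_36368 (-0.80 to -0.22). Fish 27 at 50 ng/g read 0.64 for contig_5214 (-0.25 to -0.10). In liver, control fish 8 read -4.81 for contig_2298 (-1.68 to -1.51), and Cd fish 45 read 0.47 for contig_20582 (-0.04 to 0.10).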

How the results depend on the processing

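The members numbered 77 to 92 without 1 array of the rule, and 42 with at least 8 values in each tissue. Recentring kept all 88 and added others, quantile normalization 95 (86 shared) and scaling to one spread 81 (78 shared). Of the counts of members called, those against the reference ran over leave-one-out fits at 4 to 23 (Cd), 0 to 1 (50 ng/g), 18 to 25 (300 ng/g), 2 to 4 (Gironde) and 12 to 16 (Garonne). They ran at 12 to 18 between the PCB doses, 5 to 10 between the sites, 8 to 14 among the 5 groups and 8 to 48 for Cd fin against liver. Array weights gave 32 (Cd), 2 (50 ng/g), 47 (300 ng/g), 33 (doses) and 53 (Cd fin against liver). Quantile normalization gave 1 (50 ng/g), 7 (Gironde) and 37 (Cd fin against liver), and scaling to one spread 1, 8 and 37, with 17 (300 ng/g) and 11 (doses). A minimum of 4 values gave 16 (300 ng/g), 1 (Gironde), 6 (Garonne), 10 (doses), 1 (sites) and 1 (5 groups). A minimum of 5 gave 6, 0, 4 and 4 in the first 4 of these and 10 for Cd fin against liver, and left no member to test between the sites or among the 5 groups. Higher minimums left fewer members to test, so these counts are not out of the same number. A minimum of 1 gave 17 (sites) and 26 (5 groups). All 35 fin arrays in the fit gave 19 (Cd), and only the groups compared gave 1 (Cd), 15 (300 ng/g), 0 (Gironde) and 10 (doses). With signs turned, fish 26 gave 10 (doses) and A306 gave 1 (Gironde). The fish number as a replicate block gave 0 for Cd fin against liver, though the numbers were not taken as pairing. Recentring moved the median of all contigs by over 0.1: to 0.16 from -0.04 (300 ng/g), -0.47 from -0.04 (Gironde), 0.85 from 0.18 (Garonne), 0.01 from -0.10 (doses), -1.20 from -0.15 (sites) and -0.55 from 0.06 (control minus Certes). Named contigs lost a call in 47 of their alternatives, kept it in 256 and changed sign in 0. Shares of all contigs called in these other fits are not given, so the counts show only how the number within the set moved. The causes were not tested. The dim reference channel limits how well single ratios of the members are known.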
